A study of Homo sapiens with 2 samples.

Results

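The genes described here encode chromatin remodelling and histone-modifying enzymes and their close subunits. They were chosen by gene symbol, as all genes whose symbol starts with SMARC, SETD, or HDAC, SIRT, KDM, KMT, CHD, ARID, BRD, ING or KAT followed by a digit, with the Y-linked match left out. The rule found 90 of the 11963 genes that the array names by 1 symbol, read by 180 probe sets, and used no measured value. Of the 90, 2 match in symbol only, namely BRD3OS, a transcript from the opposite strand of BRD3, and BRD7P3, a pseudogene.

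RNA came from H6c7, an epithelial line of human pancreatic duct immortalised with papillomavirus oncogenes, and from H6c7 cells that also received a K-ras oncogene. Both groups thus share the immortalisation, and the labels set them apart by the introduced oncogene. With 1 array of each line, other differences between the lines or the arrays cannot be told apart from the oncogene. Each was hybridised to 1 Affymetrix oligonucleotide array. Whether the K-ras cells were 1 clone or a pool, and what drove the oncogene, was not given in the sources used here, and the level of the introduced gene was not analysed here. With 1 array per line there is no spread between samples, no test and no p-value. Precision is limited by having 1 array per line.

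DNA in the nucleus is wound around histones, and the enzymes in this group decide how tightly. Remodellers such as SWI/SNF, ISWI and CHD spend ATP to slide or evict nucleosomes. Acetyltransferases and methyltransferases place marks on histone tails, deacetylases and demethylases remove them, and proteins with bromodomains or related modules read them. Several SWI/SNF subunits, and the MLL-type methyltransferases, are recurrently mutated in pancreatic ductal carcinoma.

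Values are array signals in linear intensity units, and ratios are K-ras over parental. Parental and K-ras arrays had median signals of 43.9 and 46.9, and the floor was set at the higher of them. Probe sets marked _x_at by the array's maker may also detect similar transcripts and are called uncertain. The probe set used was of this kind for 12 members, ARID1A, BRD1, BRD2, ING1, KAT5, KAT6B, KDM3B, KMT2D, SETD4, SMARCA2, SMARCA4 and SMARCA5. Among genes outside the rule that are named below, it was so for RBBP4, SAP30 and ACTB. The limit holds for all of these, also where it is not repeated. A gene under the floor on both arrays counts as not measured. A gene under it on 1 array has a ratio against the floor, given as a bound ("at least"). Of 7 duct epithelial markers, all 7 were above the floor on both arrays, and they went both ways. KRT19, EPCAM and SOX9 had log2 ratios of -1.46, -1.06 and -1.03, KRT7 and CDH1 of -0.32 and -0.03, and KRT18 and KRT8 of 0.38 and 0.88. Markers of other cell types were few and dim. Of 7 fibroblast markers, 3 were above the floor in parental cells and 4 in K-ras cells, with summed signals of 275 and 371. Leukocyte, endothelial and acinar markers had 1 gene each above the floor, on the K-ras array alone, and islet markers had none. The highest signal among those 3 lists was 80.6, for PECAM1, and PTPRC, CDH5 and VWF were below the floor on both arrays. The part of these markers in the results below was not tested.

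The enzyme genes as a whole were not set apart from other genes. Of 90 genes, 76 were measured, 62 above the floor on both arrays and 14 as bounds, and 14 were below the floor on both. By a threshold of 2-fold, 7 of the 76 were higher in the K-ras line and 9 were lower. Those are 9.21% and 11.8% of the measured members, beside 9.97% and 14.4% of all 7693 measured genes. Without the bounds, 6 members were higher and 6 lower, beside 11.1% and 13.4% of the 5996 genes that cleared the floor on both arrays. These shares lie near the background, so the counts are no result about the group. The median log2 ratio of the 62 was 0.05, beside 0.10 for all genes that cleared it likewise. With the bounds counted at the floor it was 0.01, beside 0.10. The sign of the members' median turned with the scaling, to -0.06 after a loess correction and to -0.05 after median centring. The members past 2-fold are described by family below. Those of SWI/SNF and of the zinc deacetylases lay on both sides, and those of each other family on 1 side.

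**Figure D1:**
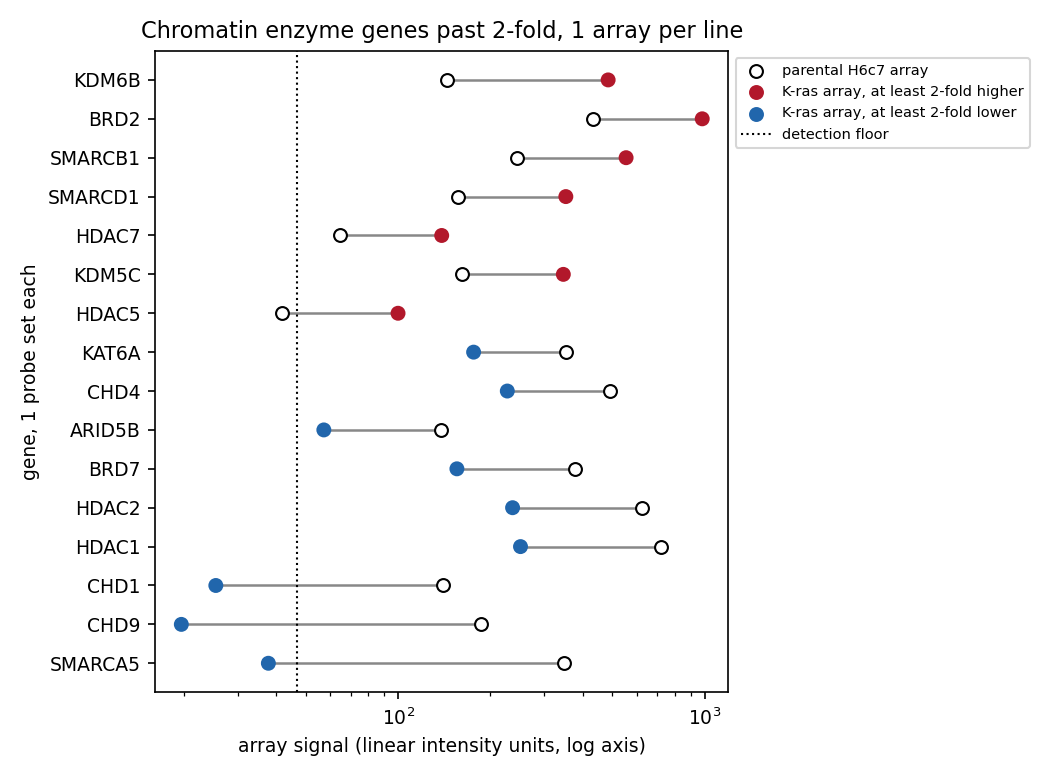
Signals of the 16 members that were at least 2-fold apart, with the parental array as open circles and the K-ras array as filled circles (red higher, blue lower), on a log axis of linear intensity units. The K-ras signals of SMARCA5, CHD9 and CHD1 and the parental signal of HDAC5 lie left of the dotted floor at 46.9, so their ratios are bounds.

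The zinc-dependent histone deacetylases strip acetyl groups from histones and other proteins. Past 2-fold, 2 of 7 measured lay above and 2 below, beside 9.97% and 14.4% of all measured genes. The class I enzymes HDAC1 and HDAC2, the catalytic pair of the NuRD, SIN3 and CoREST corepressor complexes, were both lower in the K-ras line. HDAC1 went from 720.8 in parental cells to 250.8 in K-ras cells, 2.87-fold lower. HDAC2 went from 624.2 to 236.3, 2.64-fold lower. The pair thus moved by much the same factor, and each was read by 1 probe set. Both stayed past 2-fold under all 11 alternative settings. Changes of floor level or probe set choice could not alter either ratio, so those settings are no check. HDAC3, the class I enzyme of the NCOR complexes, had signals of 286.8 and 352.3, a log2 ratio of 0.30.

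The class IIa enzymes, which shuttle between cytoplasm and nucleus in response to kinases, included the members at least 2-fold higher. HDAC7 went from 64.7 to 138.7, 2.14-fold higher. HDAC5 went from 41.7, under the floor, to 99.9, at least 2.13-fold higher. Both values are close to the threshold. HDAC7 fell short of 2-fold in 3 of 10 alternatives and HDAC5 in 3 of 10, median centring among them for each. HDAC9, of the same class, pointed the other way with signals of 76.8 and 48.6 and a log2 ratio of -0.66. HDAC4 was below the floor on both arrays, as was HDAC11, the class IV enzyme. HDAC6, a largely cytoplasmic tubulin deacetylase, had a log2 ratio of 0.64. The sirtuins, which use NAD in place of zinc, held no member past 2-fold among 6 measured, beside 9.97% and 14.4% of all measured genes. SIRT5 and SIRT7 had the highest log2 ratios, 0.80 and 0.76, and SIRT2 and SIRT1 the lowest, -0.55 and -0.42. SIRT3 and SIRT6 lay at 0.21 and 0.20, and SIRT4 was not measured.

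Promoter sequence is shown for 5 members with calls. They are the class I pair HDAC1 and HDAC2, the class IIa gene HDAC7, and KDM6B and SMARCA5, which had the highest and lowest ratios of all members against the floor used. Each run holds the 250 bases before the annotated start, read 5′ to 3′ on the gene's strand, from RefSeq on GRCh38.p14. Capitals mark matches on either strand to 7 short motifs. The SP box was searched as GGGCGG and the CCAAT box by its name. The E-box was searched as CACGTG and the ETS site as CCGGAAG. The core of the cyclic AMP element (CRE) was searched as TGACGT, the AP-1 site as TGANTCA and the TATA box as TATAAA. Overlapping matches were counted separately. HDAC1 lies at chr1:32291833-32292082 on the plus strand, HDAC2 at chr6:113971149-113971398 on the minus strand and HDAC7 at chr12:47819904-47820153 on the minus strand. KDM6B is shown for the more upstream of its 2 listed starts, chr17:7833967-7834216 on the plus strand, and SMARCA5 lies at chr4:143513452-143513701 on the plus strand.
HDAC1: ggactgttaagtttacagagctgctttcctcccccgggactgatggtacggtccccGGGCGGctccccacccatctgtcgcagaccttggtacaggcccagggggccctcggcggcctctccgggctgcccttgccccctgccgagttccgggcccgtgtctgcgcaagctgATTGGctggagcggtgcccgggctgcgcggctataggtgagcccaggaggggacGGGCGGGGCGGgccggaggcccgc
HDAC2: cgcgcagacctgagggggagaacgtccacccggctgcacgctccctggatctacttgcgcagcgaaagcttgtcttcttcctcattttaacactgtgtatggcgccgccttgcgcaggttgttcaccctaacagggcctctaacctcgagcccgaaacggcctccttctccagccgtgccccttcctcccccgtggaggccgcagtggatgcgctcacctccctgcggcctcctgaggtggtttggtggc
HDAC7: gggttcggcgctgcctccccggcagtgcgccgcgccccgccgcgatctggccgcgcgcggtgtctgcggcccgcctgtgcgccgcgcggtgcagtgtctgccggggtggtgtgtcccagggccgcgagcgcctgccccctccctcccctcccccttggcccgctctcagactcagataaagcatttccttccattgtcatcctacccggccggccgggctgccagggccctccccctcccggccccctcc
KDM6B: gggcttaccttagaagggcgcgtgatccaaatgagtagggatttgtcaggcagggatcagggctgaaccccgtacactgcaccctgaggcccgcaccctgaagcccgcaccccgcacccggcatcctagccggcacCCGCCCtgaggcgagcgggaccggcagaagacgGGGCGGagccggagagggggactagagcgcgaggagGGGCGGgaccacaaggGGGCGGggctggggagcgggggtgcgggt
SMARCA5: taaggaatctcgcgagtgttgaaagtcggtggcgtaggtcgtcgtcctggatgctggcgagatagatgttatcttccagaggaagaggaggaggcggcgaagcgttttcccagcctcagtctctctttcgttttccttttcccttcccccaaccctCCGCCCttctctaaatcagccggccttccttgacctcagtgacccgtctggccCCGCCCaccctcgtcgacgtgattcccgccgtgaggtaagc

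The HDAC1 window held 3 SP boxes, 2 of them overlapping, and 1 CCAAT box. The HDAC2 and HDAC7 windows held no match to any of the 7 motifs. The KDM6B window shown held 4 SP boxes and the SMARCA5 window 2. The window of the other KDM6B start held no match, with a GC content of 50.4% and 1 CpG dinucleotide. Over all members, 77 of 90 genes matched the promoter table, with 124 listed starts. An SP box was found in 61.3% of those windows and in 42.6% of all 35116 windows of the same length. Member windows had a median GC content of 66.4% and a median of 22 CpG dinucleotides, against 58.0% and 11 for all windows. A TATA box was found in 3.23% of member windows and 10.7% of all. An AP-1 site was found in 5.65% of member windows and 6.57% of all, and a CRE core in 5.65% and 7.10%. Members at least 2-fold higher had 10 windows with a median GC content of 64.4%, and members at least 2-fold lower had 12 with 66.8%. A match is a description of letters in these windows and no evidence of binding.

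The ATPases outside SWI/SNF held the 3 lowest ratios of the whole group against the floor used. Of 12 genes 9 were measured, 4 at least 2-fold lower and none higher, beside 14.4% and 9.97% of all measured genes. With a floor at the 30th percentile, or none, CHD9 was lower than SMARCA5, at log2 ratios of -3.22 and -3.24. SMARCA5 encodes SNF2H, the ISWI motor that spaces nucleosomes behind the replication fork. It went from 346.6 in parental cells to 37.7 in K-ras cells, at least 7.39-fold lower. That probe set is uncertain, but one that is not went from 234.3 to 27.8, a bound at a log2 ratio of -2.32. The remaining one, also uncertain, gave a bound of -0.80. SMARCA5 stayed past 2-fold under all 11 alternatives.

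CHD9 went from 185.8 to 19.6, at least 3.96-fold lower. CHD1, which binds methylated histone H3 at active genes, went from 139.6 to 25.4, at least 2.98-fold lower. Each lost the call only with the floor raised to the 70th percentile, which leaves less room below. CHD4, the NuRD motor, was 2.16-fold lower in the probe set used, from 490.4 to 227.1. The other probe sets stood at -0.23 and 0.10 on the log2 scale, so the 3 probe sets do not point one way. CHD4 kept the call in 6 of 10 alternatives. CHD3, the alternative NuRD motor, had the highest log2 ratio of the class at 0.81, with signals of 121.2 and 212.2. CHD7, SMARCAL1, CHD8 and CHD1L lay between -0.66 and 0.24. CHD2, CHD5 and SMARCA1 were below the floor on both arrays in the probe set used. For SMARCA1, the other ISWI motor, another probe set went from 83.6 to 14.2, a bound at a log2 ratio of -0.83.

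**Figure D2:**
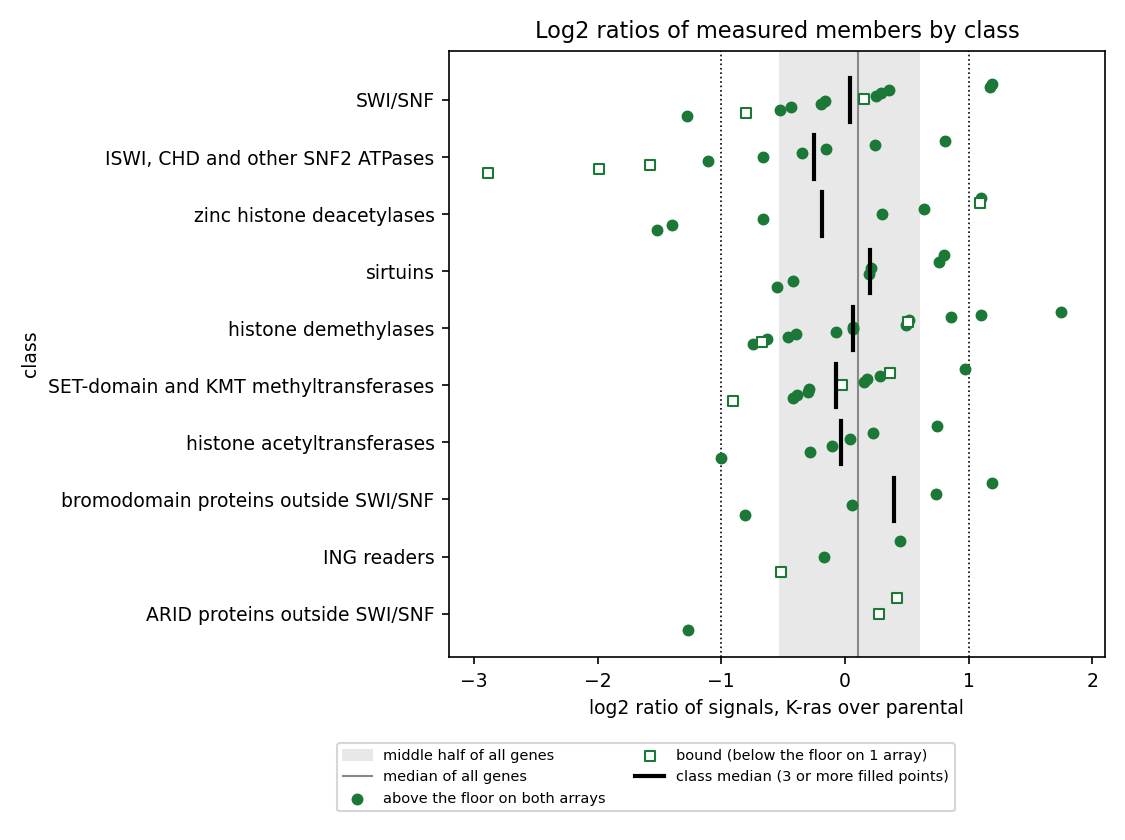
Log2 ratios (K-ras over parental) of the measured members by class, leaving out the symbol match BRD3OS; filled circles are above the floor on both arrays, open squares are bounds, black bars are class medians, and dotted lines mark 2-fold. The 3 lowest points are bounds in the ISWI and CHD class, and the deacetylases reach past 2-fold on both sides.

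The symbol rule picked out 12 SWI/SNF subunits, and all 12 were measured. Of 15 SWI/SNF partners listed outside the rule, 3 were not measured. The 2-fold threshold was passed upward by 2 of the 12 subunits and downward by 1. The shares among all measured genes were 9.97% and 14.4%. SMARCB1, a core subunit lost in rhabdoid tumours, went from 243.9 to 554.6, 2.27-fold higher. SMARCD1, an accessory core subunit, went from 156.4 to 352.6, 2.25-fold higher, and its second probe set from 142.1 to 305.3. BRD7, the bromodomain subunit of the PBAF form, went from 377.6 to 155.5, 2.43-fold lower. SMARCB1 and BRD7 stayed past 2-fold in all 10 alternatives that gave a value. SMARCD1 did so in 10 of 11, with a log2 ratio of 0.97 when the floor was added as a pseudocount.

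SMARCA4 and SMARCA2 are the alternative ATPases. SMARCA4 had signals of 617.4 and 788.7, a log2 ratio of 0.35, and the 6 probe sets that cleared the floor on both arrays ranged from -0.28 to 0.79. SMARCA2 went from 81.7 to 26.8, a bound at a log2 ratio of -0.80. Its probe set is an uncertain one. SMARCE1 had a log2 ratio of -0.53 in the probe set used, but its other probe set went from 433.0 to 151.0, a log2 ratio of -1.52. ARID1A, the DNA-binding subunit often mutated in carcinoma, had log2 ratios of -0.47 to 0.29 over 3 probe sets. SMARCC1, SMARCC2, SMARCD2 and BRD9 lay between -0.43 and 0.25, and SMARCD3 gave a bound of 0.15. The class median was 0.04.

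Among the histone demethylases, 14 of 15 genes were measured, 2 at least 2-fold higher and none lower, beside the same 9.97% and 14.4%. KDM6B (JMJD3) removes the repressive trimethyl mark laid down by Polycomb and is induced by many stimuli. It had the highest ratio of all members against the floor used. Without a floor SETD1A, among others, stood higher, at a log2 ratio of 3.24. KDM6B went from 144.7 in parental cells to 484.6 in K-ras cells, 3.35-fold higher. A second probe set went from 66.2 to 160.5, and the remaining one from 31.6 to 125.1, at least 2.67-fold higher. All 3 probe sets thus passed 2-fold, and so did KDM6B under all 11 alternatives. Its X-linked paralog KDM6A, with the same substrate, had signals of 89.6 and 65.0, a log2 ratio of -0.46.

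KDM5C, which removes methyl groups from lysine 4 of histone H3, went from 161.8 to 346.0, 2.14-fold higher. It kept the call in 9 of 11 alternatives, with a log2 ratio of 0.99 after median centring. Its paralogs KDM5A and KDM5B had log2 ratios of -0.07 and 0.06, and the 3 KDM5B probe sets ranged from 0.02 to 0.07. KDM3A had the lowest ratio among those above the floor on both arrays, -0.74, with signals of 130.7 and 78.1. KDM8 went from 74.5 to 10.3, a bound of -0.67 that allows a larger difference. KDM1A (LSD1), which works with HDAC1 and HDAC2 in CoREST, went from 527.3 to 341.3, a log2 ratio of -0.63. KDM2A stood at 0.86 in the probe set used, but at -0.28 and -0.40 in others, so it has no settled direction. KDM4B had a log2 ratio of 0.52, with bounds of 0.91 and 1.06 in other probe sets. KDM3B, KDM4A and KDM4C lay between -0.40 and 0.50, KDM7A gave a bound of 0.51, and KDM4D was not measured.

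No methyltransferase of the SET and KMT group passed 2-fold in the setting used, among 11 measured of 13. The shares of all measured genes were 9.97% higher and 14.4% lower. Under alternatives 1 was higher with quantile or maintenance scaling, 1 lower with median centring, and 1 higher and 1 lower with the floor as a pseudocount. The matching shares of all measured genes were 11.1% and 14.4% higher, 16.5% lower, and 6.10% higher and 10.9% lower. A floor at the 30th percentile gave 1 higher and 2 lower, beside 13.9% and 14.4% of all measured genes. No floor gave 2 and 2, beside 20.3% and 15.0%. KMT2B, an MLL-type enzyme for lysine 4 of histone H3, came nearest with signals of 69.0 and 135.2, a log2 ratio of 0.97. KMT2A had log2 ratios of 0.28 and -0.13, and a bound of 1.03 in one more probe set. SETD2, the enzyme that trimethylates lysine 36 of histone H3 behind elongating polymerase, had the lowest ratio against the floor. It went from 87.8 to 15.3, a bound at a log2 ratio of -0.90. SETD1A went from 6.4 to 60.3, a bound of 0.36, and KMT5B from 47.8 to 17.2, a bound of -0.03. All 3 bounds allow differences past 2-fold. SETD1B, SETD3, SETD4, SETD5, SETDB1 and KMT5A lay between -0.42 and 0.18. KMT2D and SETD6 were not measured.

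Of the acetyltransferases, 6 of 7 were measured, with none at least 2-fold higher and 1 lower, beside 9.97% and 14.4% of all measured genes. KAT6A (MOZ) went from 353.5 to 176.3, 2.01-fold lower, which is at the threshold. It kept the call in 7 of 11 alternatives, but changes of floor level or probe set choice left its ratio unchanged. The call was lost with quantile scaling, maintenance scaling, a pseudocount and span removal, at log2 ratios of -0.94, -0.81, -0.84 and -0.74. KAT5 (TIP60) had the highest log2 ratio, 0.74, with its other probe sets at 0.24 and 0.17, all 3 of them uncertain. KAT6B, KAT2A, KAT8 and KAT7 lay between -0.28 and 0.23, and KAT2B was not measured.

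The BET proteins, bromodomain readers that recruit elongation factors to acetylated chromatin, pointed upward. BRD2 went from 432.1 to 982.8, 2.27-fold higher, on an uncertain probe set, and its other 2 probe sets had log2 ratios of 1.51 and 1.27. It stayed past 2-fold in all 10 alternatives that gave a value. BRD3 went from 206.1 to 342.7, a log2 ratio of 0.73, while its other probe set stood at 1.27. BRD3OS went from 110.9 to 66.0, a log2 ratio of -0.75. BRD8, a subunit of the TIP60 complex, had signals of 157.9 and 90.3, a log2 ratio of -0.81, and BRD1 a log2 ratio of 0.06. The ING readers of lysine 4 methylation ranged from a bound of -0.51 for ING3 to 0.44 for ING1, with ING2 at -0.17 and ING4 not measured. ARID5B, a DNA-binding partner of a demethylase, went from 137.6 to 57.2, 2.41-fold lower, and lost the call in 2 of 11 alternatives. ARID3A and ARID4B gave small bounds of 0.42 and 0.28. A second ARID4B probe set went from 94.6 to 9.8, a bound at -1.01, so its probe sets point opposite ways. ARID3B and ARID5A were not measured, nor was BRD7P3.

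Class medians used members that cleared the floor on both arrays. Relative to the median of all such genes they ran from -0.35 for the ISWI and CHD class to 0.29 for the bromodomain proteins. They were -0.28 for the zinc deacetylases, -0.17 for the methyltransferases, -0.14 for the acetyltransferases, -0.06 for SWI/SNF, -0.04 for the demethylases and 0.10 for the sirtuins. The ING and ARID groups had too few such members. They rest on 4 to 12 genes each and leave out genes that lay under the floor on 1 array, SMARCA5, CHD9 and CHD1 among them. With the bounds counted, the median log2 ratio went from -0.25 to -0.66 for the ISWI and CHD class, and from -0.18 to 0.30, a change of sign, for the deacetylases. For the deacetylases the median describes no member well, since HDAC1 and HDAC2 lie far below it and HDAC6 and HDAC7 far above.

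Repeat probe sets give the one internal check, and it is technical. Counting probe sets that cleared the floor on both arrays, 21 members had at least 2, and 14 of these had all of them on the same side of 0. The pooled standard deviation between their probe sets was 0.39 on the log2 scale. KDM6B, BRD2 and SMARCD1 had every such probe set past 2-fold. HDAC1, HDAC2, HDAC7, KDM5C, BRD7, SMARCB1, KAT6A and ARID5B have no second probe set of this kind, so their ratios rest on 1 measurement per line.

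**Figure D3:**
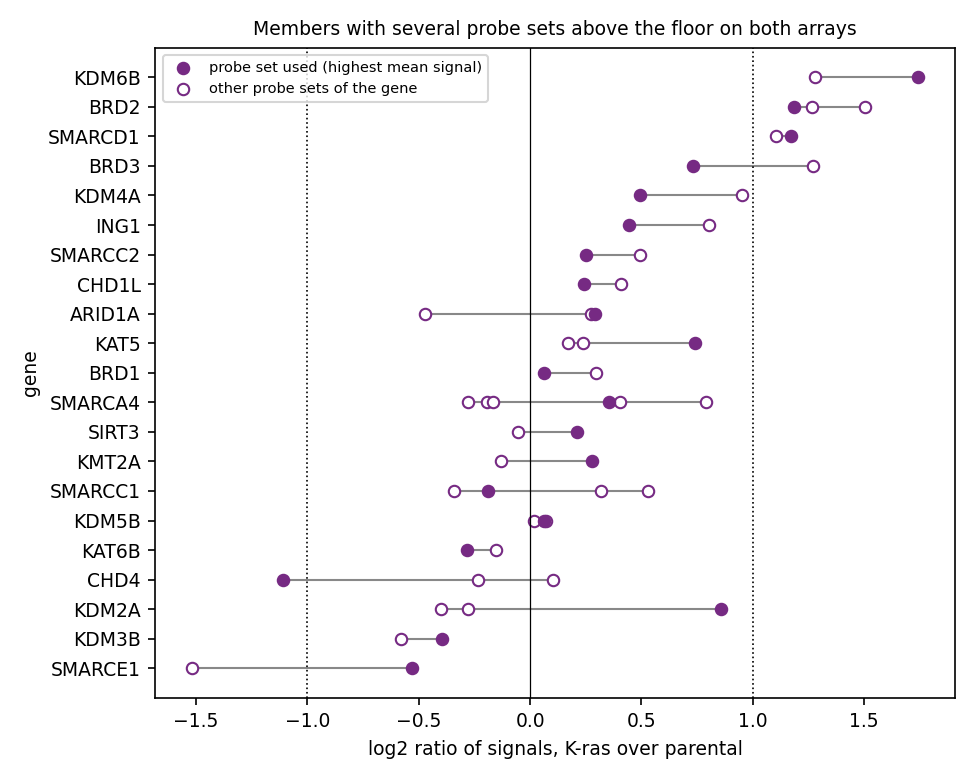
Log2 ratios of all probe sets that cleared the floor on both arrays, for the 21 members that have at least 2, with the probe set used filled and the others open; dotted lines mark 2-fold. KDM6B, BRD2 and SMARCD1 lie wholly right of the 2-fold line, while CHD4 and KDM2A spread over both sides of 0.

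Subunits and related enzymes outside the symbol rule came from a list of 129 genes, of which 105 were measured. By the 2-fold threshold 9 of the 105 were higher in the K-ras line and 16 lower, beside the same 9.97% and 14.4% of all measured genes. Their median log2 ratio above the floor on both arrays was 0.13. Counts of calls again lie near the background, and the named genes show where they fell. RBBP4, RBBP7, MTA1, MBD3, POLE3, ACTB, EZH2, EP300 and CREBBP passed no threshold and were picked for their role with their values in view. BAZ2B, BPTF and MBD4 passed none in the probe set used and were likewise picked with their values in view.

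Partners of the class I deacetylases went both ways. In the ISWI, INO80 and SRCAP list, 0 of 14 measured were higher and 3 lower, namely BAZ1A, BAZ1B and RUVBL1. The shares of all measured genes were 9.97% and 14.4%. Of the 10 in that list above the floor on both arrays, 6 had positive log2 ratios and 4 negative. BAZ1A, which pairs with SMARCA5 in the ACF and CHRAC remodellers, went from 210.0 to 23.4, at least 4.48-fold lower, and its second probe set gave a bound at a log2 ratio of -1.03. BAZ1B, its partner in the WICH complex, was 2.20-fold lower. BAZ2A, its partner in the NoRC complex, stood at a log2 ratio of 0.77, with 1.19 and 0.15 in other probe sets, and POLE3 of CHRAC at 0.19. BAZ2B, of the same list, gave a bound of -0.37, and BPTF bounds of -0.24 and, in a second probe set, -0.79. The histone chaperones RBBP4 and RBBP7, shared by NuRD, SIN3 and Polycomb, had log2 ratios of -0.90 and -0.75, with -1.21 in a second RBBP4 probe set. SAP30, a SIN3 subunit, was at least 2.37-fold lower on an uncertain probe set, and TBL1XR1, an NCOR subunit, at least 3.69-fold lower. MTA1 and MBD3, other NuRD subunits, stood at 0.74 and 0.53, with 1.37 and 1.11 in second probe sets, and HMG20B of CoREST was 2.17-fold higher with 0.76 in a second probe set. Of 16 measured partners in this corepressor list, 1 was higher and 2 lower, beside 9.97% and 14.4% of all measured genes. The 12 that cleared the floor on both arrays had a median of 0.33. HMG20B kept its call in 6 of 10 alternatives and BAZ1B in 7 of 10.

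SWI/SNF partners went both ways, like the members. BCL7C and BCL7B, small accessory subunits, were 3.61-fold and 3.01-fold higher. PHF10 and PBRM1, which with BRD7 mark the PBAF form, were 2.32-fold and 2.04-fold lower, and the actin-like subunit ACTL6A 2.42-fold lower. PBRM1 lost the call in 3 of 9 alternatives, and the other 4 kept it in all or all but 1. ACTB itself had a log2 ratio of 0.00.

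Polycomb genes, which write and read the mark that KDM6B removes, also went both ways among 16 measured, with 4 higher and 3 lower, beside the same 9.97% and 14.4%. EED and SUZ12, obligate subunits of the methyltransferase complex PRC2, were 5.14-fold and 3.07-fold lower. EED ended at 50.3, just above the floor, so its ratio is close to a bound. MTF2, a PRC2 accessory factor, was 2.34-fold lower with -0.71 in a second probe set, and the catalytic subunit EZH2 had a log2 ratio of -0.68. Of the other complex, PRC1, RING1 was 2.26-fold higher with 1.38 on the log2 scale in a second probe set, and PCGF3 2.38-fold with a second probe set at -0.38. PHC2 of PRC1 went from 387.0 to 774.5 and PHF1, a PRC2 factor, from 210.9 to 422.2. MTF2 kept its call in 6 of 11 alternatives and PCGF3 in 8 of 11. PHC2 and PHF1 sit at the threshold, and each lost the call after loess correction and after median centring.

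In the remaining lists, HAT1, which acetylates newly made histone H4, had the lowest ratio of all partners against the floor. It went from 504.6 to 42.6, at least 10.8-fold lower. TRRAP and MORF4L2, scaffolds of the TIP60 complex, were 2.03-fold and 2.05-fold lower, TADA3 2.52-fold higher, RIOX2 2.71-fold lower (log2 -1.76 in a second probe set) and the helicase RUVBL1 2.02-fold lower. The arginine methyltransferase PRMT3 was 2.91-fold lower. PRMT2 was 2.22-fold higher, but -0.29 on the log2 scale in a second probe set. TRRAP had -0.60 on the log2 scale in a second probe set and kept its call in 5 of 10 alternatives and RUVBL1 in 6 of 10. EP300 and CREBBP, the general acetyltransferases, had log2 ratios of 0.09 and 0.27. None of 8 measured MLL complex partners passed 2-fold in the probe set used, beside 9.97% higher and 14.4% lower of all measured genes. PAXIP1 was lowest at -0.79 and CXXC1 highest at 0.73. A second CXXC1 probe set stood at 1.32. By the median over probe sets 1 gene of this list was higher, beside 9.91% of all measured genes. In the DNA methylation list, DNMT1 was just short of 2-fold lower at -0.99. After loess correction or median centring 1 of 5 measured genes was lower, beside 15.5% and 16.5% of all measured genes. MBD1 was highest at 0.56, and its second probe set went from 113.6 to 430.6, a log2 ratio of 1.92.

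**Figure D4:**
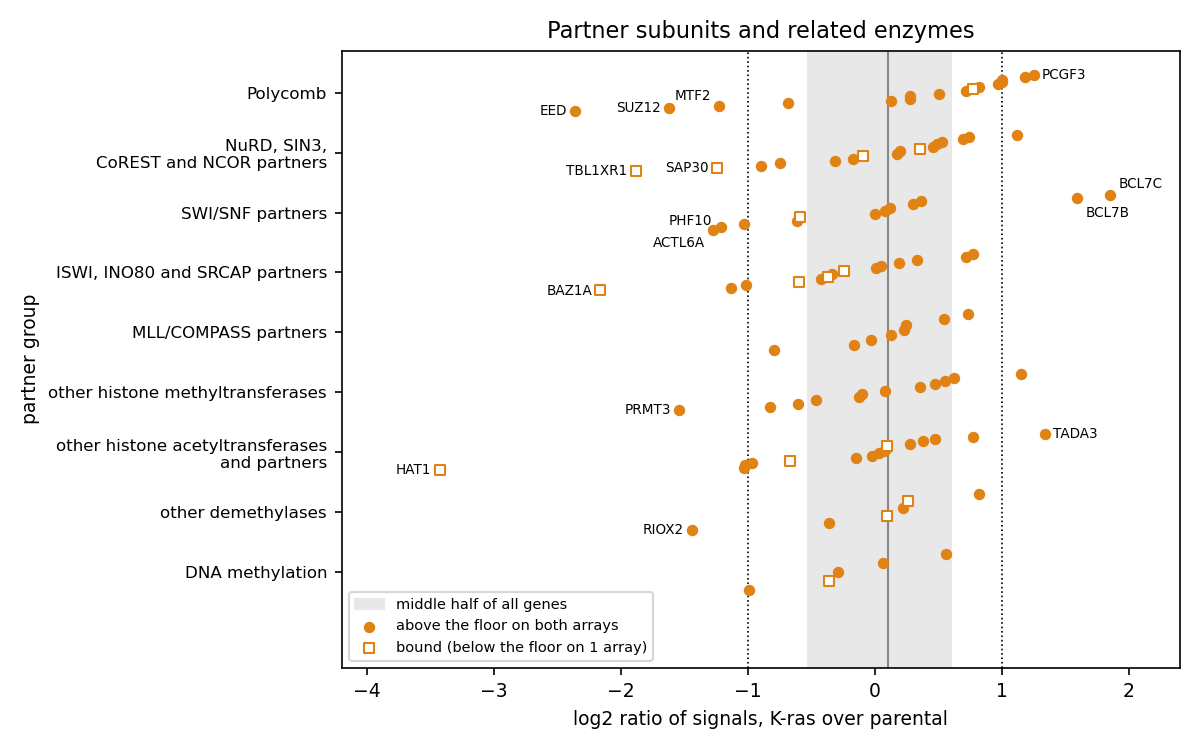
Log2 ratios (K-ras over parental) of the 105 measured partner genes by group, with filled circles above the floor on both arrays, open squares as bounds and dotted lines at 2-fold. EED and SUZ12 lie left of the Polycomb group, whose other genes run to 1.25, and HAT1 is the lowest point.

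Ratios fell with genomic span across the array, and members tend to be long. The median genomic span was 43.1 kb for the 90 members and 28.9 kb for all genes. Over all genes that cleared the floor on both arrays, the median log2 ratio was 0.35 for spans under 10 kb and -0.12 for spans of 100 kb or more. Among members it was 0.04 for the 6 with spans under 10 kb, 0.25 for the 17 with spans of 10 to 30 kb, -0.04 for the 26 of 30 to 100 kb and -0.19 for the 13 of 100 kb or more. Spearman's rho of log2 ratio with span was -0.23 over the 62 members and -0.22 over 5994 genes, a description over genes that share 2 arrays. With the span trend removed, the median of the members became 0.13 and the counts 8 higher and 7 lower. The shares of all measured genes were then 10.8% higher and 12.8% lower. The calls of HDAC1, HDAC2, HDAC7, SMARCA5, CHD1, CHD9, KDM6B and BRD2 remained past 2-fold, and CHD4 and KAT6A fell short. The part of span in the results was otherwise not tested.

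**Figure D5:**
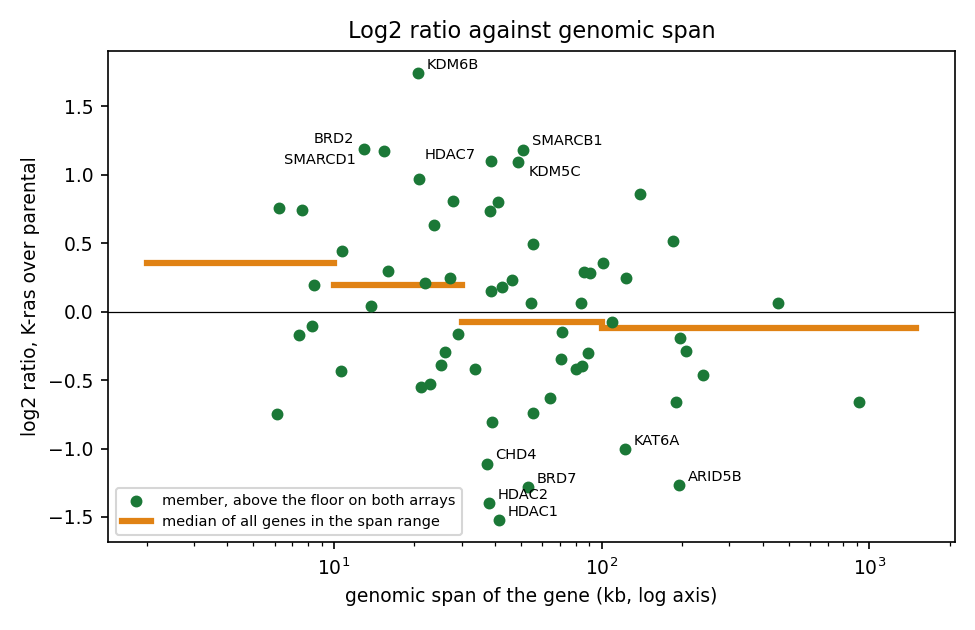
Log2 ratio (K-ras over parental) against genomic span in kb on a log axis for the 62 members above the floor on both arrays, with orange bars for the median of all genes in 4 span ranges (the outer 2 are open-ended). KDM6B, BRD2 and SMARCD1 are short and high, ARID5B and KAT6A long and low, while HDAC1 and HDAC2 lie near 40 kb and far below the orange bar.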

How the data were processed

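The deposited table gives 1 linear intensity per probe set and array for 22283 probe sets, 68 of them controls. Per the labels' protocols, RNA was extracted with phenol and chloroform, cleaned on columns and made into cRNA. No source used here names the software behind these intensities. The 2% trimmed means of the authors' columns were 150.06 in both, so the deposited intensity was taken as already scaled, and only rescaled to the same trimmed mean. Genes were named by the array's annotation, 19071 probe sets with 1 symbol, and all 90 members kept their symbols in GRCh38.p14, whose genomic spans were used. Per gene, the probe set with the highest mean log2 signal was used. A fold of 2 counted as higher or lower. Members, gene lists and settings were chosen with earlier results of these data known. Named are all genes past 2-fold, the extremes of each class and the remaining members in ranges. The 11 alternatives covered scaling, floor, probe set choice and gene span, and a threshold of 3-fold was tried for counts. The procedure was tested on simulated data with changes of at least 3-fold, planted in genes well above the floor on the parental array. Changes near 2-fold were not planted, so that test does not cover them. Tools were Python 3.11.15, numpy 2.4.6, pandas 2.3.3, statsmodels 0.14.6 and matplotlib 3.10.9.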

Additional observations from a re-analysis of the deposited data

How the results depend on the processing

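With 1 array per line, settings show only how the values depend on processing. The 16 members past 2-fold kept their sign wherever a value was given. Where both signals cleared every floor tried, a change of floor level could not alter the ratio. Nor could probe set choice where only 1 probe set was usable. Tallies over the alternatives include such fixed outcomes. Maintenance-gene scaling moved the all-gene median from 0.10 to 0.26 and the members' median to 0.25. The share of all measured genes called higher and lower was then 14.4% and 11.1%, and 10 and 7 members were called. Members called higher, 7 in the setting used, numbered 4 after median centring or with the floor as a pseudocount, 14 with no floor and 1 at 3-fold. Members called lower, 9 in the setting used, numbered 15 with no floor and 2 at 3-fold. The shares of all measured genes called lower were then 15.0% and 6.24%, beside 14.4% in the setting used. The members' median of 0.05 became -0.062 (loess), -0.052 (median centring), 0.19 (floor at the 70th percentile), 0.11 (without _x_at and _s_at probe sets) and 0.13 (span trend removed). Class medians relative to all genes moved most for the zinc deacetylases, to 0.15 (floor at the 30th percentile), -0.65 (70th), 0.035 (no floor) and -1.50 (without _x_at and _s_at). Demethylases moved to 0.36 (70th), -0.20 (no floor), 0.40 (without _x_at and _s_at) and 0.14 (span), and methyltransferases to -0.40 (70th), 0.080 (without _x_at and _s_at) and 0.016 (span). SWI/SNF moved to -0.22 (no floor) and -0.29 (without _x_at and _s_at), and the ISWI and CHD class to -0.77 (no floor) and -0.13 (span). Partners, with alternatives chosen after seeing the data, went from 9 higher to 5 (70th), 14 (no floor), 3 (pseudocount) and 2 (3-fold), and from 16 lower to 10 (70th), 9 (pseudocount), 6 (without _x_at and _s_at) and 5 (3-fold). Leaving out _x_at and _s_at probe sets tests fewer genes; otherwise the cause was not tested.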
